A study of Danio rerio with 35 samples.

Results

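Wild-type zebrafish embryos were followed through gastrulation by comparing poly(A)+ RNA at 8 hours post fertilization (hpf) with poly(A)+ RNA at 6 hpf, and with 4 hpf as the earlier point of the same kind of RNA. These were 3 of the 35 libraries of the series, chosen by their labels. Of the 27997 entries of the deposited exon table, 27151 stood for a gene of their own, and the 846 that joined overlapping genes were left out. The 14882 entries at 1 RPKM or more in at least 1 of the 3 libraries are described. RPKM is reads per kilobase of transcript scaled to the size of the library.

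The study asked how the factors Nanog, SoxB1 and Pou5f1 take part in switching on the zygotic genome. The wild-type (WT) groups were whole embryos of the TUAB strain with no treatment, and each library held the RNA of 5 pooled embryos. The triple loss group was MZpou5f1 {hi349Tg/hi349Tg}, which lacks maternal and zygotic pou5f1 (named pou5f3 here), injected at the 1-cell stage with morpholinos against Nanog and SoxB1. The rescue group had the same genotype and morpholinos and also received rescue mRNA. Both have 1 poly(A)+ library at 6 hpf and 1 at 8 hpf, and WT total RNA (ribosomal RNA depleted) at 6 hpf has 3 libraries. The title of the 4 hpf library names poly(A)+ RNA, while its molecule label names total RNA. Each poly(A)+ stage has 1 library, so no difference between stages has a replicate check and no p-value is given.

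Gastrulation lays down the germ layers: mesoderm and endoderm move inside at the margin, the dorsal organizer emits inhibitors of BMP and Wnt signals, and the ectoderm left outside becomes neural tissue dorsally and epidermis ventrally. Nodal signals from the margin and yolk induce mesoderm and endoderm early. Wnt, FGF and retinoic acid then give posterior character, BMP gives ventral character, and homeobox genes such as the otx, gbx and hox genes divide the neural plate from front to back.

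The 3 WT libraries were alike in breadth, with 11963 to 12378 entries at 1 RPKM or more. Absolute depth is unknown, because RPKM values alone were at hand. From the smallest steps of the values, the 6 and 8 hpf libraries were estimated at 1.145 and 1.185 times the depth of the 4 hpf library. The WT total RNA libraries at 6 hpf were shallower, at 0.232 to 0.36 times that depth. Markers of all the germ layers that could be matched were present, while of 23 entries for blood, muscle, neuron, liver and pancreas genes only ins, the insulin gene, reached 1 RPKM in any library (1.11, 0.796 and 0.171 RPKM at 4, 6 and 8 hpf). The endoderm genes sox32 and sox17 and the ventral repressors vox, vent and ved were not matched by identifier and were not analysed here.

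Between 6 and 8 hpf, 680 of the 14882 genes (4.57%) were 2-fold or more higher at 8 hpf and 717 (4.82%) were 2-fold or more lower. All changes are differences of log2(RPKM + 0.5), which understate the change of genes at low levels. A 4-fold change was met by 65 genes upward (0.437%) and 72 downward (0.484%). The step from 4 to 6 hpf was much broader, with 3554 genes (23.9%) 2-fold or more higher and 5892 (39.6%) lower. At 4-fold, that step had 1793 genes (12%) higher and 2937 (19.7%) lower. The median change of the 5433 genes at 5 RPKM or more in all 3 libraries was -0.34 from 4 to 6 hpf and -0.02 from 6 to 8 hpf on the log2 scale. The stage shares above count 1 direction each. With both directions counted, 13485 of the 14882 genes (90.6%) were under 2-fold from 6 to 8 hpf. As a yardstick, pairs of the 3 WT total RNA libraries at 6 hpf were compared over the same 14882 genes. Between pairs, 3.92% to 7.26% of genes were 2-fold or more apart, in either direction. The share of genes 4-fold or more apart between those pairs was 0.349% to 0.806%. Those libraries are shallower and of another kind of RNA, so they are a rough measure of how often 2 libraries of 1 condition differ this much.

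Germ layer and patterning genes were counted by list and set beside all described genes. Lists of 318 such genes gave 296 entries, of which 220 were described. The lists were chosen with earlier results of these data known, so their shares beside all genes are a description only. Of these 220, 47 (21.4% beside 4.57% over all genes) were 2-fold or more higher at 8 hpf. Another 14 were lower (6.36%, near the 4.82% over all genes), and 159 were under 2-fold. The median log2 change was 0.19 beside -0.01 over all genes. From 4 to 6 hpf, 143 of the 220 (65% beside 23.9%) were 2-fold or more higher and 22 (10% beside 39.6%) lower. The median of that step was 2.16 beside -0.49 over all genes. The counts of single lists below for 6 to 8 hpf stand beside the same 4.57% higher and 4.82% lower. The neuroectoderm list had the highest share of higher genes, 14 of 30. The endoderm list had the highest share of lower ones, 3 of 7, of which 2 are the entries named cxcr4. That name lacks the letter of a gene copy, so the 2 entries may be different copies, not both of them endoderm genes. In whole embryos, more cells of a type and more RNA per cell cannot be told apart.

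**Figure D1:**
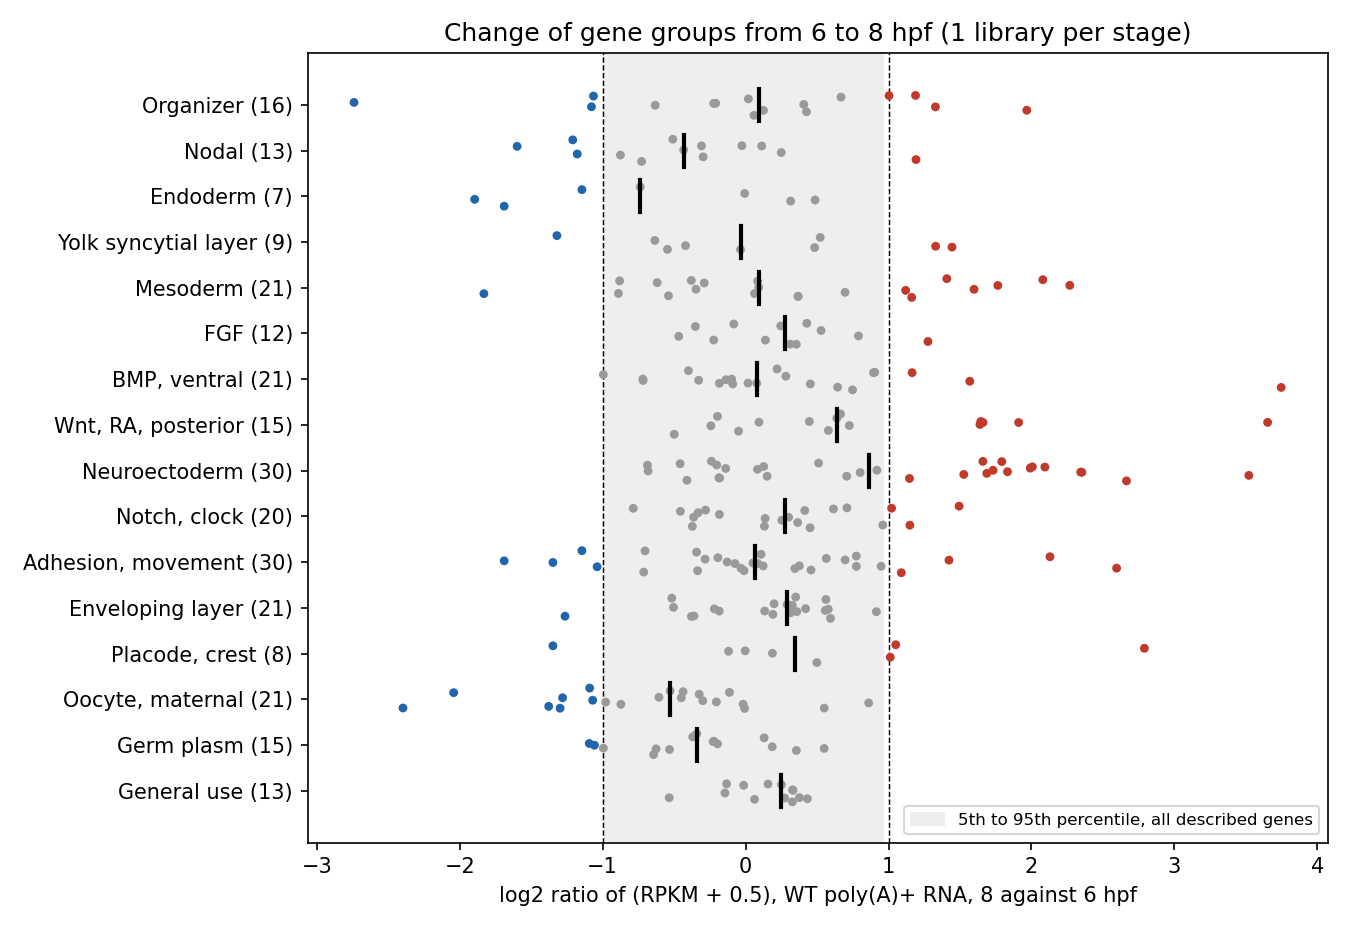
Each point is a gene, placed on the x axis by its log2 ratio of (RPKM + 0.5) at 8 against 6 hpf in WT poly(A)+ RNA, in rows by gene list with the number described in brackets. Black bars are list medians, dashed lines mark 2-fold, red and blue points lie past it, and the grey band holds the middle 90 percent of all described genes. The neuroectoderm row has its median at 0.86 and 14 red points, while the endoderm row has its median at -0.74 and no red point.

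The neuroectoderm list gave the largest number of genes higher at 8 hpf, 14 of 30, with none 2-fold lower. The otx genes encode homeobox factors of forebrain and midbrain: otx2 was at 0.238, 5.96 and 32.3 RPKM at 4, 6 and 8 hpf, and its relative otx2a at 3.45, 54.9 and 122 RPKM. These are log2 changes of 2.35 and 1.15 from 6 to 8 hpf, after increases of 3.13 and 3.81 in the step before. The 3 total RNA libraries at 6 hpf held otx2 at 0.331 to 1.16 RPKM and otx2a at 15.6 to 27.9 RPKM, all below the 8 hpf level. The forebrain gene fezf2, a zinc finger factor, was at 0.946, 0.265 and 8.28 RPKM, a log2 change of 3.52. Of the 2 entries of six3, an eye and forebrain homeobox gene, ENSDARG00000058008 was at 1.03, 1.36 and 6.88 RPKM. The other, ENSDARG00000054879, had started a stage earlier, at 0.150, 7.37 and 8.09 RPKM.

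Further neural regulators were also higher at 8 hpf. Both entries of foxb1, a forkhead gene of the neural plate, were higher at 8 hpf: ENSDARG00000053650 was at 0.828, 0.921 and 6.76 RPKM, and ENSDARG00000089042 at 6.70, 8.67 and 25.9 RPKM. The zinc finger gene sp8 was at 3.78, 2.55 and 10.1 RPKM, and olig4, a basic helix-loop-helix gene of neural progenitors, at 1.16, 2.77 and 10.4 RPKM. The log2 changes from 6 to 8 hpf were 2.35 and 1.53 for the foxb1 entries, 1.79 for sp8 and 1.73 for olig4. The SoxB1 genes, which mark the whole early neural plate, had no such step. After its start, sox2 held 87.1 and 73.8 RPKM at 6 and 8 hpf, and sox3 and sox19a were at 203 and 271 RPKM at 6 hpf and at 126 and 204 RPKM at 8 hpf. So some regional genes were higher at 8 hpf while these SoxB1 genes stayed under 2-fold. Other regional genes were also among the 16 of 30 under 2-fold, such as lhx5 at 30.8 and 32.7 RPKM and irx1 at 22.5 and 39.6 RPKM at 6 and 8 hpf.

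Some genes of the Wnt, retinoic acid and hox list were higher too, with 5 of the 15 described past 2-fold and none lower. The 5 include cyp26a1, an enzyme that degrades retinoic acid. The other 10 stayed under 2-fold, such as wnt3a at 1.72 and 1.07 RPKM and sp5 at 15.4 and 21.2 RPKM at 6 and 8 hpf. The hox gene hoxb1b, which patterns the hindbrain, was at 0.151, 0.447 and 11.4 RPKM, a log2 change of 3.65. Of the other hox entries of the list, hoxb2 alone was described, with 9.66 RPKM at 4 hpf but 0.0730 and 0 RPKM at the later stages, and the rest were under 1 RPKM in all 3 libraries. The caudal-type homeobox gene cdx1a was at 0.186, 13.6 and 43.5 RPKM, and meis3, a homeobox cofactor of Hox proteins in the hindbrain, was at 0.507, 1.85 and 6.82 RPKM. Their log2 changes from 6 to 8 hpf were 1.65 and 1.64. At the border of midbrain and hindbrain, gbx1, an anterior hindbrain homeobox gene, was at 3.10, 7.07 and 28.0 RPKM, a log2 change of 1.91.

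The enzymes of retinoic acid turnover differed in timing. The retinoic acid synthesis gene aldh1a2 was at 0.127, 51.6 and 77.3 RPKM, so most of its increase came before 6 hpf. The degrading enzyme cyp26a1 was at 47.0, 44.6 and 142 RPKM, level over the first step and higher by 1.66 on the log2 scale over the second. Total RNA at 6 hpf held cyp26a1 at 48.2 to 86.3 RPKM, above the 6 hpf poly(A)+ value, so 8 hpf was not 2-fold above every one of those libraries.

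The clearest starts were 8 genes (0.0538% of those described) that were under 1 RPKM at 4 and 6 hpf and reached 5 RPKM, with a 4-fold or greater change, at 8 hpf. They were hoxb1b, fezf2 and foxb1 of the lists, and map1lc3cl, twist1a, meis2b, twist2 and si:dkey-69o16.5 outside them. The mesenchyme factor twist1a was at 0.257, 0.406 and 9.09 RPKM and its relative twist2 at 0.105, 0.923 and 6.45 RPKM. The Hox cofactor meis2b was at 0.330, 0.0720 and 5.09 RPKM. The gene with the greatest change, map1lc3cl, named as a relative of the autophagy protein LC3, was at 0.189 RPKM at 4 hpf, listed at 0 at 6 hpf and at 8.41 RPKM at 8 hpf. All 8 were low genes, with 8 hpf values between 5.09 and 11.4 RPKM. Mean levels in total RNA at 6 hpf were under 1 RPKM for 7 of the 8, with map1lc3cl at 1.102 ± 0.309 RPKM (SD, n = 3).

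**Figure D2:**
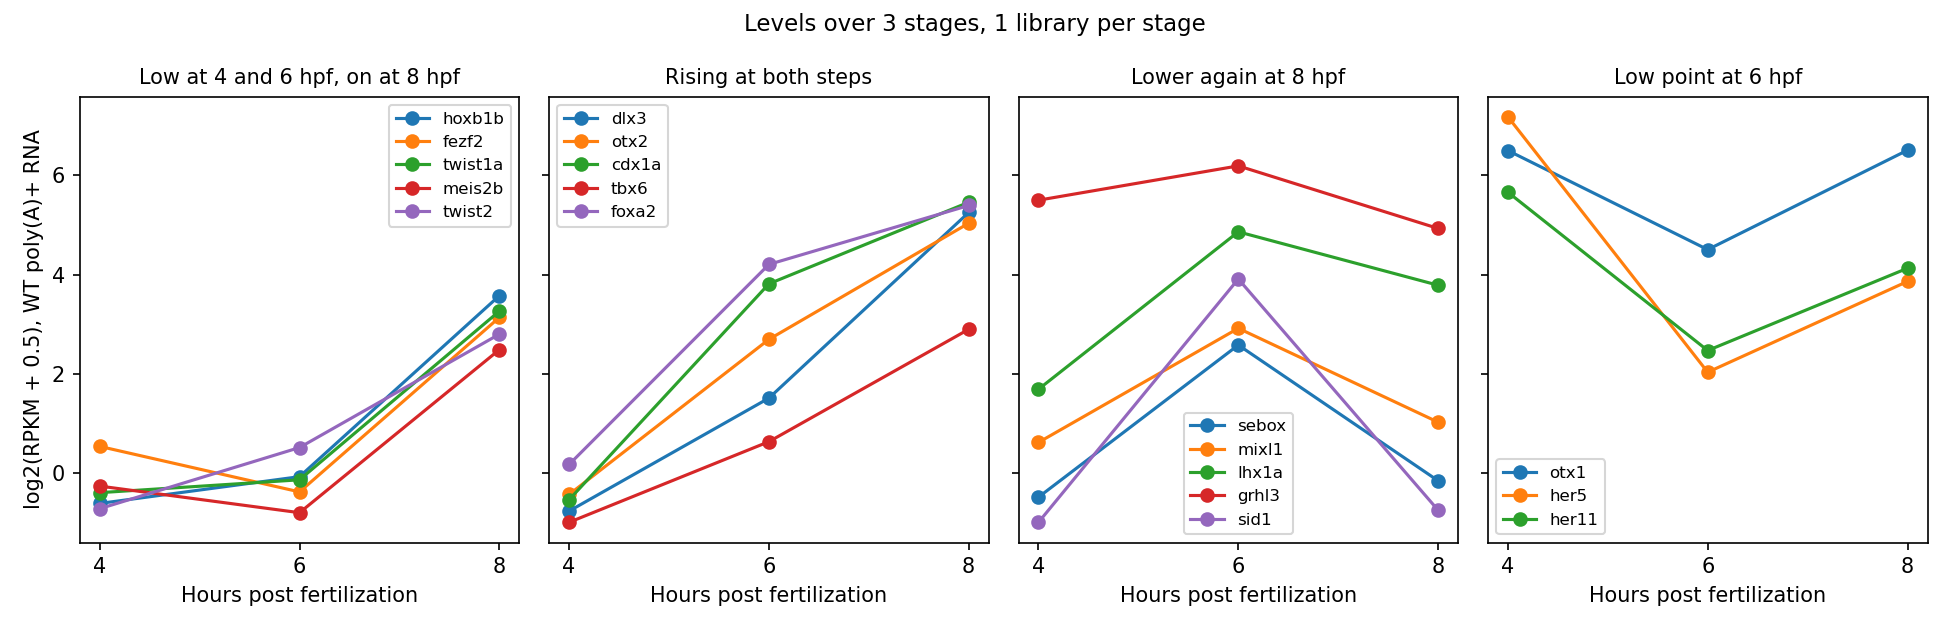
Lines join log2(RPKM + 0.5), y axis, of named genes at 4, 6 and 8 hpf, x axis, with 1 WT poly(A)+ library per point. From left to right the panels show genes that start at 8 hpf, such as hoxb1b at 11.4 RPKM, genes that climb at both steps, genes that are lower again at 8 hpf, such as sebox at 0.394 RPKM, and genes with a low point at 6 hpf.

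Some mesodermal genes were higher at 8 hpf and others were level. Of 21 described, 7 were 2-fold or more higher at 8 hpf and 1, at under 5 RPKM throughout, was lower. The T-box gene tbx6, which acts in paraxial mesoderm, was listed at 0 at 4 hpf and was at 1.05 and 6.94 RPKM at 6 and 8 hpf. The myogenic factor myf5 was listed at 0 at 4 hpf, then at 1.93 and 5.94 RPKM, and foxc1, a forkhead gene of paraxial mesoderm, was at 0.192, 21.2 and 48.1 RPKM. These are log2 changes of 2.27, 1.41 and 1.16 from 6 to 8 hpf. The ventrolateral Wnt ligand wnt8a has 2 entries in the table, at 14.7, 31.9 and 109 RPKM and at 17.3, 42.0 and 128 RPKM. Both entries climbed at each step and both exceeded every 6 hpf total RNA library, which held 39.4 to 46.7 and 46.2 to 51.9 RPKM. Reads of the 2 entries may not be independent, since they share a name and how reads were assigned to them is not stated.

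Other mesoderm genes, 13 of the 21, stayed under 2-fold from 6 to 8 hpf. The T-box genes tbxt (brachyury) and tbx16 were at 13.4 and 181 RPKM at 6 hpf and at 17.4 and 124 RPKM at 8 hpf. The presomitic gene msgn1 was at 0.128, 117 and 123 RPKM, little different between the later stages. Genes of the Notch pathway and somite clock were similar, with 3 of 20 higher and none lower. Of the 20, 12 had risen 4-fold or more from 4 to 6 hpf and then stayed under 2-fold, beside 1521 of all 14882 genes. The clock gene her7, for example, was at 1.59, 51.5 and 39.7 RPKM, and mespab, a segmentation factor, was listed at 0 at 4 hpf and was at 20.6 and 22.7 RPKM afterwards. Of the 3 higher genes, the Hairy-related her12 was at 2.03, 2.22 and 5.52 RPKM and the receptor notch2 at 2.92, 2.69 and 5.98 RPKM.

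Among 16 organizer and axial entries, 4 were higher, of which 2 are entries of shh, and 3 were lower at 8 hpf. The higher ones belong to the axial mesoderm and floor plate: foxa2, a forkhead factor of both, was at 0.623, 17.9 and 41.6 RPKM. Its log2 change was 1.19. The entry ENSDARG00000068567 of the signal gene shh was at 0.0730, 2.08 and 5.99 RPKM. The other shh entry was listed at 0 at 4 hpf and was at 0.194 and 2.21 RPKM later. The secreted Wnt antagonist frzb was at 0.410, 12.5 and 25.6 RPKM, just past 2-fold. The lower ones were genes of early dorsal and mesendodermal specification. The homeobox gene dharma, an early dorsal determinant, was at 14.3, 1.66 and 0.534 RPKM. In total RNA it was at 10.1 RPKM at 4 hpf and 3.52 to 8.29 RPKM at 6 hpf, a smaller fall. The LIM homeobox gene lhx1a was at 2.72, 28.6 and 13.3 RPKM. The mix-type homeobox gene sebox was at 0.211, 5.47 and 0.394 RPKM, the greatest fall of any listed gene, at -2.74. The organizer genes gsc and chrd, a homeobox factor and a BMP antagonist, stayed under 2-fold in the later step: gsc was at 10.1, 14.9 and 12.9 RPKM and chrd at 5.09, 133 and 135 RPKM.

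More Nodal and endoderm genes were lower than higher at 8 hpf. In the Nodal list 3 of 13 were lower and 1 higher, and in the endoderm list 3 of 7 were lower and none higher, with medians of -0.43 and -0.74 on the log2 scale. The ligands ndr1 and gdf3, which act together in mesendoderm induction, were at 1.67 and 28.9 RPKM at 6 hpf and at 0.440 and 9.22 RPKM at 8 hpf. Both had been higher still at 4 hpf, at 14.4 and 337 RPKM, as had the T-box factor eomes, at 75.3, 2.46 and 0.808 RPKM. The earlier fall of the ligands was smaller in total RNA. There, ndr1 was at 13.6 RPKM at 4 hpf and 6.43 to 12.4 RPKM at 6 hpf, and gdf3 at 129 and 65.2 to 102 RPKM. For eomes these values were 25.1 and 2.20 to 3.52 RPKM. Total RNA at 2 hpf already held 3.80 RPKM of ndr1, 258 RPKM of gdf3 and 34.5 RPKM of eomes. The mesendoderm factor mixl1 peaked between, at 1.03, 7.05 and 1.53 RPKM. The chemokine receptor name cxcr4, whose copies guide endodermal and germ cell movement, had 2 entries, at 117 and 105 RPKM at 6 hpf and at 36.0 and 47.3 RPKM at 8 hpf. Which entry is which copy was not settled here.

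Other Nodal pathway and endoderm genes showed no such drop. The feedback inhibitor lft2 was the higher gene of the Nodal list, at 12.99, 10.02 and 23.5 RPKM, but total RNA at 6 hpf held 28.7 to 43.9 RPKM of it, more than the 8 hpf value. The co-receptor gene tdgf1 was at 93.2, 87.1 and 61.1 RPKM and the transcription factor gene foxh1 at 87.2, 109 and 88.7 RPKM. The endoderm and heart factor gata5 was at 0.468, 53.1 and 52.9 RPKM, and s1pr2, a lipid receptor needed for heart precursor migration, was at 1.57, 8.74 and 12.4 RPKM. The fall was therefore seen in the ligands ndr1 and gdf3 and in some of the early factors, not across the list. Of the 14 genes sought for the Nodal list 13 were found, and the list held no entry of ndr2.

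Of 21 BMP and ventral genes 3 were higher at 8 hpf and none lower, and the ligands stayed under 2-fold. The ligands bmp2 and bmp4 were at 42.0 and 18 RPKM at 6 hpf and at 51.2 and 10.7 RPKM at 8 hpf, and bmp7a, at 62.6 and 31.2 RPKM, lay just under the 2-fold line. The homeobox gene dlx3, which marks the border of neural plate and epidermis, was at 0.0850, 2.34 and 37.7 RPKM, a log2 change of 3.75. In total RNA at 6 hpf dlx3 was at 1.17 ± 0.88 RPKM (SD, n = 3). The BMP target msx1b, a homeobox gene, was at 1.98, 22.2 and 50.3 RPKM. The direct BMP response genes id1 and id3 were level, at 454 and 84.7 RPKM at 6 hpf and at 400 and 85.7 RPKM at 8 hpf. In the placode and crest list, 3 of 8 were higher, all under 5 RPKM in the 3 WT poly(A)+ libraries, and snai2, a zinc finger repressor, was lower at 26.8, 12.9 and 4.78 RPKM.

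FGF genes were mostly level, with 1 of 12 higher (8.33% beside 4.57% over all genes) and none lower. The ligand fgf8 was at 0.688, 13.1 and 32.4 RPKM. Its 6 hpf total RNA values of 23.7 to 32.8 RPKM reached the 8 hpf level, so the increase depends on which 6 hpf library it is set against. The FGF feedback gene dusp6 was at 20.4, 79.7 and 75.2 RPKM, and the receptor gene fgfr4 at 12.2, 80.4 and 108 RPKM.

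Genes of cell adhesion and movement had 4 higher and 4 lower of 30 (13.3% each, beside 4.57% and 4.82% over all genes). Fibronectin, the matrix protein over which mesoderm migrates, had an entry of fn1 (ENSDARG00000019815) at 4.68, 10.6 and 48.3 RPKM, a log2 change of 2.13. The adhesion gene pcdh19, a protocadherin, was listed at 0 at 4 hpf and was at 1.17 and 9.61 RPKM at 6 and 8 hpf, and cxcl12b, a chemokine, was at 0.489, 8.84 and 19.4 RPKM. In total RNA at 6 hpf cxcl12b was at 2.85 to 10.9 RPKM, so 8 hpf was not 2-fold above every one of those libraries. The related ligand gene cxcl12 was at 1.89, 9.91 and 12.7 RPKM, under 2-fold in the later step. The 2 entries of their receptor cxcr4, which are counted in both lists, were lower. An entry of the ephrin ligand efnb2 (ENSDARG00000020164) was at 0.0600, 38.7 and 18.6 RPKM, while the other (ENSDARG00000074050) was at 0.106, 16.5 and 17.5 RPKM. The total RNA libraries at 6 hpf held the former at 19.3 to 23.3 RPKM, close to its 8 hpf value.

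In the enveloping layer, the embryo's early outer epithelium, 16 of 21 genes rose 4-fold or more from 4 to 6 hpf and then stayed under 2-fold. Over all genes, 1521 of 14882 did so. In all, 20 of the 21 were under 2-fold from 6 to 8 hpf, near the 90.6% of all genes. Their summed level was 599 RPKM at 4 hpf, 6083 RPKM at 6 hpf and 7765 RPKM at 8 hpf. The keratins krt4 and krt8 were at 1086 and 1130 RPKM at 6 hpf and at 1621 and 1383 RPKM at 8 hpf. The exception was grhl3, a Grainyhead factor of the epidermis, at 44.8, 72.7 and 30.0 RPKM, a log2 change of -1.26. In the yolk syncytial layer, which feeds the embryo from the yolk, 2 of 9 genes were higher at 8 hpf and 1 lower. The lipid transfer gene mttp was at 0.0250, 119 and 171 RPKM. The lipoprotein genes apobb.1 and apoa2 were the higher ones, apobb.1 at 0.00600, 2.75 and 7.66 RPKM and apoa2, under 5 RPKM throughout, at 0.164, 1.49 and 4.91 RPKM. The homeobox gene mxtx2, which specifies the layer, was the lower one, at 43.8, 2.30 and 0.620 RPKM. Its earlier fall was smaller in total RNA, with 42.8 RPKM at 4 hpf and 16.2 to 26.8 RPKM at 6 hpf.

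Over all genes, 551 (3.7%) went from under 1 RPKM at 4 hpf to 5 RPKM or more, by 4-fold or more, at 6 hpf. They then stayed under 2-fold to 8 hpf. These are starts by poly(A)+ level only, since 20 of them were at 5 RPKM or more in total RNA at 2 hpf. Of the 551, 46 are in the patterning lists. Of the 8 with the largest increase and a symbol, 4 are on the enveloping layer and yolk syncytial layer lists, such as the keratin cyt1, at 0.0420, 225 and 339 RPKM, and the cathepsin ctsll, listed at 0 at 4 hpf and at 305 and 426 RPKM later. A further 167 genes (1.12%) climbed at both steps, 20 of them in the lists, and 260 (1.75%) fell at both steps, 6 of them in the lists. These list counts stand beside 220 list genes among all 14882 described genes. Among the climbers outside the lists were the endothelial and blood stem cell surface gene cd34, listed at 0 at 4 hpf and at 2.29 and 13.7 RPKM later, and pkdcc, a secreted kinase gene, listed at 0 and then at 2.87 and 15.9 RPKM. Starts before 6 hpf were thus far more numerous than the 8 starts after it.

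Few genes were high at 6 hpf alone. A peak of 4-fold or more above both neighbours was met by 20 genes (0.134%), and 17 (0.114%) fell from 5 RPKM or more to under 1 RPKM at 8 hpf. The list gene in both groups was sebox. Outside the lists, sid1 was listed at 0 at 4 hpf and was at 14.5 and 0.0920 RPKM at 6 and 8 hpf, and it was at 22.1 ± 10.3 RPKM (SD, n = 3) in total RNA at 6 hpf. The bile acid receptor gene gpbar1 was likewise listed at 0, then at 5.75 and 0.462 RPKM, with 6.07 ± 3.09 RPKM (SD, n = 3) in total RNA. The presence of both at 6 hpf was therefore also seen in separate libraries. The largest fall was that of si:dkey-125e8.4, at 18.9 RPKM at 6 hpf and listed at 0 at 4 and 8 hpf, but its total RNA level of 8.33 ± 8.27 RPKM (SD, n = 3) varied as much as its mean.

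A low point at 6 hpf, a pattern looked for after the data were seen, was met by 51 genes (0.343%) that were 5 RPKM or more at 4 and 8 hpf and 2-fold or more lower between. Of these, 46 were at 5 RPKM or more in total RNA at 2 hpf, when the zygotic genome is still largely silent. So were 219 of the 260 genes that fell at both steps. The share over all genes was not computed. The rule itself asks for 5 RPKM or more at 4 hpf and then a fall, so this count is a description only. The list genes among the 51 were otx1, her5 and her11. The forebrain and midbrain homeobox gene otx1 was at 34.5 RPKM in total RNA at 2 hpf and at 90.2, 22.2 and 90.7 RPKM in poly(A)+ RNA at 4, 6 and 8 hpf. The Hairy-related genes her5 and her11, which mark the midbrain-hindbrain border, were listed at 0 at 2 hpf. In poly(A)+ RNA her5 was at 145, 3.58 and 14.04 RPKM and her11 at 50.1, 5.03 and 17.0 RPKM. In total RNA at 6 hpf her5 was at 19.8 ± 5.26 RPKM (SD, n = 3), a mean above its 8 hpf poly(A)+ value, so its later increase does not hold against those libraries. For her11 the total RNA level at 6 hpf was 1.92 ± 0.537 RPKM (SD, n = 3) and for otx1 3.69 ± 1.27 RPKM (SD, n = 3), both below the poly(A)+ value. Kind of RNA and set of embryos cannot be told apart here.

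Stored oocyte RNAs went on declining after 6 hpf, at a smaller scale than before. From 4 to 6 hpf 17 of 21 oocyte genes (81.0% beside 39.6% over all genes) were 2-fold or more lower, with a median of -4.12. From 6 to 8 hpf 7 of 21 (33.3% beside 4.82%) were 2-fold or more lower, with a median of -0.53. The cyclin gene ccna1 was at 1087, 21.4 and 4.83 RPKM and cth1, a zinc finger RNA-binding protein gene, at 387, 23.3 and 4.02 RPKM. The transcription factor gene nanog was at 1394, 50.6 and 20.3 RPKM. The Oct4-related gene pou5f3 differed, at 327, 762 and 363 RPKM, with 394 to 488 RPKM in total RNA at 6 hpf. Germ plasm RNAs, which are kept in the few primordial germ cells, had 2 of 15 lower (13.3% beside 4.82% over all genes). The Piwi gene piwil1 was at 29.9, 6.77 and 2.91 RPKM and hook2 at 22.1, 6.78 and 3.00 RPKM. The germ cell helicase gene ddx4 was at 143, 82.1 and 53.0 RPKM and nanos3 at 112, 10.5 and 11.5 RPKM, both under 2-fold in the later step. Poly(A)+ levels at 6 hpf lay below all 3 total RNA libraries for 17 of 21 oocyte genes and for 7756 of all 14882 genes (52.1%). RNA amount and tail length cannot be told apart in poly(A)+ RNA.

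**Figure D3:**
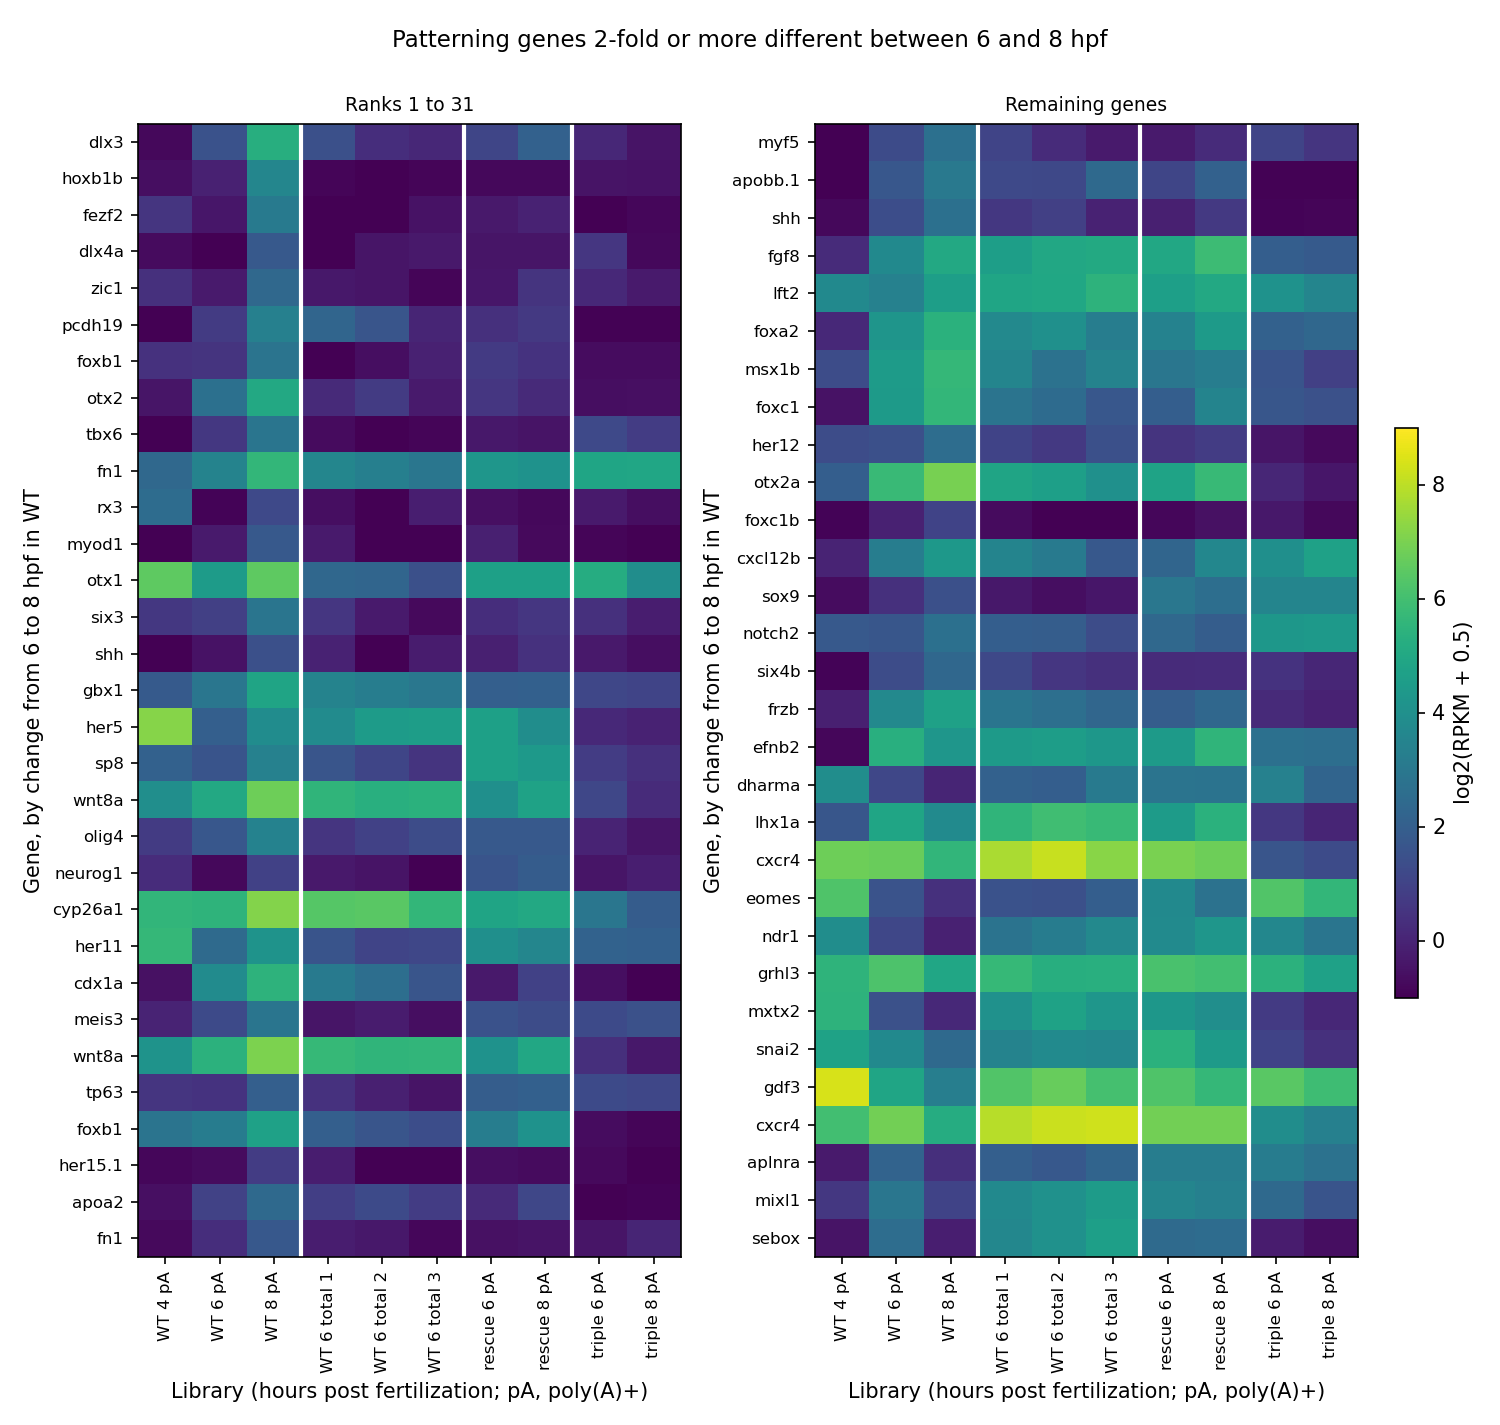
Colour gives log2(RPKM + 0.5) of the 61 patterning list genes that differed 2-fold or more between 6 and 8 hpf, in rows ordered by that change, for the WT poly(A)+, WT total RNA, rescue and triple loss libraries in columns. In the upper rows of the left panel the WT 8 hpf column is brighter than the WT 6 hpf poly(A)+ column and than most 6 hpf total RNA columns.

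Because the 6 hpf poly(A)+ level comes from 1 library, the 8 hpf level was also set against each of the 3 total RNA libraries at 6 hpf. Of the 47 higher list genes, 39 were 2-fold or more above all 3 (83.0% beside 29.1% over the 220 list genes and 7.37% over all genes). Of the 14 lower list genes, 12 were 2-fold or more below all 3 (85.7% beside 10.9% over the 220 list genes and 15.2% over all genes). Some of this gap was present at 6 hpf. There, poly(A)+ levels already lay below all 3 for 9 of the 14 (64.3% beside 52.1% over all genes). They already lay above all 3 for 26 of the 47, beside 3490 of all 14882 genes. The genes were chosen on the same 8 hpf library, so these counts are a description only, and the kind of RNA also differs. The genes that did not hold were fgf8, cyp26a1, lft2, her5, notch2, apobb.1, cxcl12b and the low gene her15.1 among the higher, and efnb2 and grhl3 among the lower. Between the 3 total RNA libraries the patterning genes had a median SD of 0.29 on the log2 scale, and 2 of them had an SD of 1 or more.

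The interval was also measured in embryos with altered genotype. In rescue embryos 168 of the 14882 genes (1.13%) were 2-fold or more higher at 8 than at 6 hpf and 331 (2.22%) lower, and in triple loss embryos 105 (0.706%) and 133 (0.894%). Of the 47 list genes higher in WT, 6 (12.8%) were also 2-fold or more higher in rescue embryos, namely dlx3, cdx1a, foxc1, foxa2, apobb.1 and cxcl12b. Over all 220 list genes, 25 were 2-fold or more higher in rescue embryos, a similar share. The 6 are therefore no result about the genes higher in WT. Of the 47, 32 were higher by any amount (68.1% beside 33.5% over all genes). For that count the share over the 220 list genes was not computed. In triple loss embryos none of the 47 was 2-fold higher, and 12 were higher by any amount (25.5% beside 36.5%). Of the 14 genes lower in WT, none was 2-fold lower in rescue embryos and 9 were lower by any amount (64.3% beside 65.9%). In triple loss embryos 1 of the 14 was 2-fold lower, and all 14 were lower by any amount (beside 61.7% over all genes). None of the 8 genes that started at 8 hpf in WT was 2-fold higher in either, a count too small to set against the shares over all genes. These embryos have 1 library per stage, and the difference from WT was not tested.

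Single genes are given as examples of the levels in these embryos, not as a count over the lists. Some list genes were above the WT value at 8 hpf in rescue embryos, such as noto at 135 beside 70.3 RPKM and tbx16 at 222 beside 124 RPKM. Others were below it. In rescue embryos hoxb1b was at 0.0780 and 0.0800 RPKM at 6 and 8 hpf, otx2 at 1.00 and 0.657 RPKM and fezf2 at 0.311 and 0.483 RPKM, all below the WT values at 8 hpf of 11.4, 32.3 and 8.28 RPKM. The mesoderm gene foxc1 was at 3.44 and 10.8 RPKM and cdx1a at 0.306 and 1.43 RPKM, higher at 8 hpf yet under the WT values of 48.1 and 43.5 RPKM. In the downward direction, mixl1 was at 11.2 and 9.80 RPKM and cxcr4 (ENSDARG00000041959) at 117 RPKM at both stages, above the WT values at 8 hpf of 1.53 and 36.0 RPKM. Triple loss embryos had foxc1 at 2.68 and 2.30 RPKM and foxa2 at 3.86 and 4.57 RPKM. For eomes, a gene that was nearly gone from WT by 6 hpf, triple loss embryos had 77.4 and 49.3 RPKM. The targeted gene pou5f3 was at 1.48 and 2.06 RPKM in triple loss embryos and at 799 and 726 RPKM in rescue embryos, which were injected with mRNA.

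**Figure D4:**
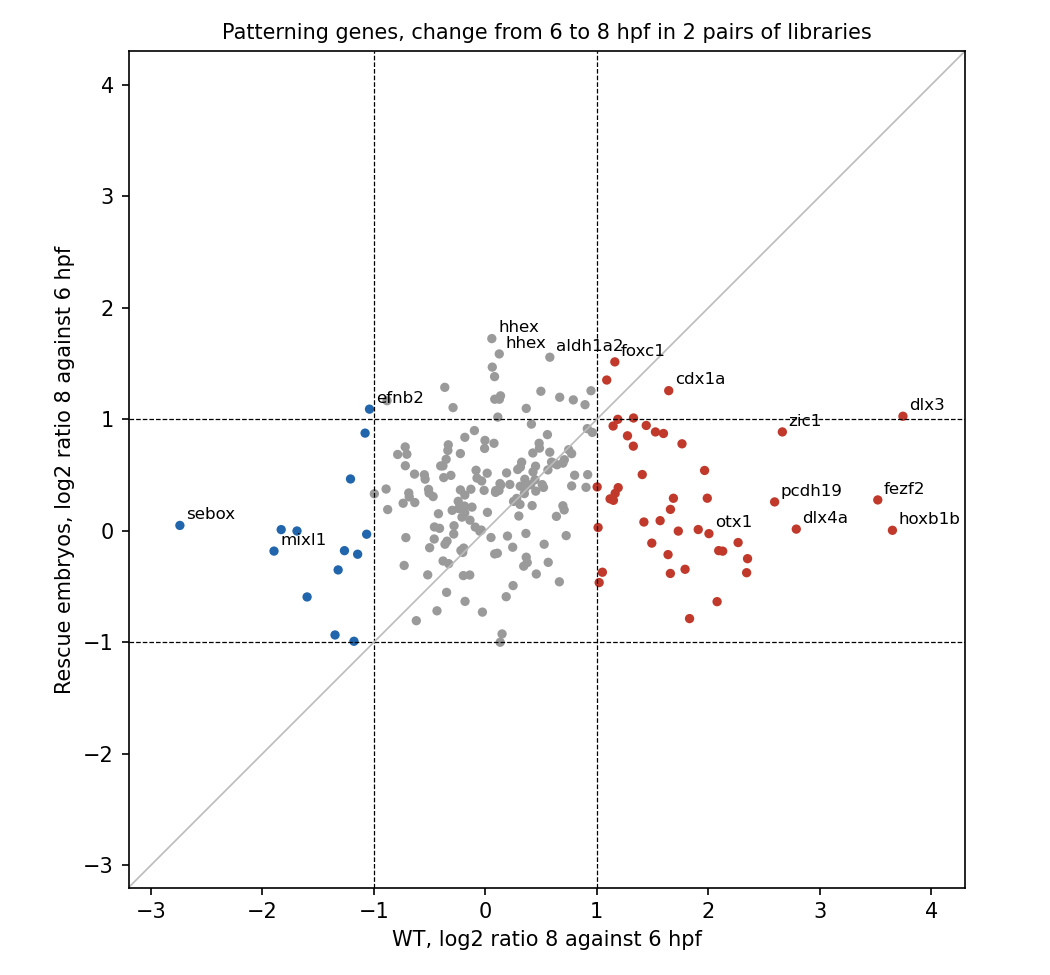
Each point is a patterning list gene, placed by its log2 ratio of (RPKM + 0.5) at 8 against 6 hpf in WT (x axis) and in rescue embryos (y axis), with 1 library per stage in each. Red and blue points are 2-fold or more higher or lower in WT, dashed lines mark 2-fold, and the diagonal marks equal change; 6 of the 47 red points and none of the 14 blue points are past 2-fold in the same direction in rescue embryos.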

How the data were processed

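The authors deposited an exon table in RPKM with 3 decimals and 1 column per library, matched to samples by the deposited column key. TopHat2 2.0.7, Bowtie 0.12.9 and CASAVA 1.8.2 appear in the submitters' processing notes. The extract protocol describes strand-specific libraries. The library total behind the RPKM is not given in the sources used here, and the intron and ribosome profiling tables were not used here.

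Changes were computed as differences of log2(RPKM + 0.5) with Python 3.11.15, pandas 2.3.3 and numpy 2.4.6, for genes whose highest WT poly(A)+ value was 1 RPKM or more. With 1 library per stage no test was run, and genes were called at 2-fold or 4-fold. The fold rules and the depth estimate were tested on simulated data. Gene symbols, in lower case and at times without the letter of a zebrafish gene copy, were matched by identifier for 72.9% of entries, and 1340 symbols belonged to several entries.

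Named list genes were 5 RPKM or more in at least 1 library and 2-fold or more different, or were level genes given for their role. Of each time pattern up to 8 genes, and 10 genes each way, could be named. The members and lists were chosen with earlier results of these data known. The genes ins and hoxb2 and the low point at 6 hpf were picked after their values were seen. Promoter motifs and sequences were not used here.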

Additional observations from a re-analysis of the deposited data

Results flagged for a closer look

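In 3 list genes the change from 6 to 8 hpf went opposite ways in WT and in altered embryos, past 2-fold in each; with 1 library per stage these differences were not tested. The homeobox gene otx1 was at 22.2 and 90.7 RPKM in WT and at 35.6 and 14.5 RPKM in triple loss embryos, log2 changes of 2.01 and -1.27. The efnb2 entry ENSDARG00000020164 was at 38.7 and 18.6 RPKM in WT and at 21.1 and 45.6 RPKM in rescue embryos, log2 changes of -1.04 and 1.09. WT total RNA at 6 hpf held 19.3 to 23.3 RPKM of it, so its fall in WT does not hold against those libraries. The distal-less gene dlx4a, named after its values were seen, was listed at 0 and was at 2.96 RPKM in WT and at 1.01 and 0.0870 RPKM in triple loss embryos, log2 changes of 2.79 and -1.36.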

How the results depend on the processing

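No paired analysis was possible because each poly(A)+ stage has 1 library and no numbers link libraries across stages. Of 429 recomputed changes of 143 named genes, 68 moved and none reversed its direction. They were recomputed with other pseudocounts, which cannot reverse a direction, and with rescaling. The median change that rescaling removed from 6 to 8 hpf was only -0.02. The lack of reversals is therefore no check of direction. With a pseudocount of 0.1 RPKM, 1051 genes were 2-fold higher and 1296 lower from 6 to 8 hpf (4-fold, 192 and 220), 451 fell steadily, 10 higher and 1 lower list genes kept their direction in rescue embryos, as did 1 late-starting gene. With 1 RPKM the counts were 448 and 447 (4-fold, 27 and 31), 12 genes peaked, 168 fell and 2 higher list genes were higher in rescue embryos. Between total RNA libraries, 11.02% and 2.49% of genes were 2-fold and 4-fold apart at 0.1 RPKM and 3.41% and 0.215% at 1 RPKM. At 5 RPKM or more, 338 genes were higher and 469 lower, 38 were 4-fold higher, and 2355 were higher from 4 to 6 hpf. With off below 2 and on at 10 RPKM, 2 genes started late, 7 peaked, 7 stopped and 106 climbed; 2-fold steps gave 116 peaks. A 4-fold rule left 13 higher and 1 lower list genes, and 0 in rescue embryos. Without 1 total RNA library in turn, the median SD was 0.154 to 0.216 and the shares 2-fold and 4-fold apart 3.92% to 7.26% and 0.349% to 0.806%; the lowest values were without replicate 3. Rescaling to the median of 5433 genes removed a median change of -0.34 from 4 to 6 hpf and left the calls within 1.5 times. The cause of these moves was not tested. Depth limits the genes under 1 RPKM. The promoter motif search was not run.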
